A study of Bos taurus with 8 samples.

Results

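The insulin-like growth factor (IGF) system was represented by 9 genes, taken as all probe sets whose platform annotation names exactly 1 symbol, that symbol being IGF1, IGF2, IGF1R or a binding protein gene from IGFBP2 to IGFBP7. The rule found all 9 genes, out of 9155 measured, with 17 of the 24016 probe sets tested. The rule uses no measured value, although the genes were proposed with earlier results of these data known, and no filter on low values was applied. A probe set is a group of short array probes for 1 transcript. IGF1 and IGF2 had 4 probe sets each, IGF1R and IGFBP3 had 2 each, and the other genes had 1.

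Transcripts were profiled on 8 arrays of RNA from the lactating mammary gland of 4 Holstein cows. Every cow contributed 1 biopsy of a full gland, taken after 12 h of milk stasis, and 1 of an empty gland, taken at 0 h with the milk just removed. The question was how accumulated milk affects transcript levels in the gland, and the full gland was compared with the empty gland of the same animal. No treatment or genotype set the cows apart in the labels, and the animals' age, the sampling order and the part of the udder were not stated in the sources used here. Because each animal gave 1 biopsy per state, the comparison also carries whatever else differed between the samplings of an animal.

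IGF1 and IGF2 are secreted growth factors that act through the receptor tyrosine kinase IGF1R, which signals to AKT and to the MAP kinases and favours the growth and survival of cells. The binding proteins IGFBP1 to IGFBP6 hold the ligands with high affinity outside the cell, so that they can prolong, store or block the signal, and proteases release the ligand again. In the mammary gland the system is known for supporting the survival of secretory epithelium, and IGFBP5 is known from rodents as a gene of involution, the regression of the gland after milk removal ends.

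Values are on the log2 scale, so that a difference of 1 is a doubling. Arrays give no depth of reads. Precision depends on the number of cows, 4, and on how far their differences scatter. Array medians were between 7.08 and 7.24, and the 11 luminal marker genes, which include caseins and keratins of the secretory epithelium, averaged 12.01 to 12.35 on the 8 arrays. Of the full libraries, those of cows 2 and 4 were the least like the others, correlating with the other arrays at a median r of 0.969 and 0.9753, where the remaining 6 reached at least 0.9856. The 3' minus 5' difference of the actin control, which grows when RNA is broken, was 1.36 in the full library of cow 4 and between -0.07 and 0.07 elsewhere. Its part in the results below was not tested.

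None of the 17 probe sets differed between full and empty gland in limma with cow as a block (adjusted p of 0.993 to 0.996, and 0 of 17 at an unadjusted p under 0.05). Over the whole array 0% of the probe sets passed the adjusted threshold of 0.05 and 2.5% had an unadjusted p under 0.05. Of the 9 genes, each represented by its brightest probe set, 5 had a higher mean in the full gland and 4 a lower mean, where 48.6% of all genes had a higher mean. Their median difference was 0.02, against -0.00361 for all genes. For 16 of the 17 probe sets the 95% interval of the difference lay inside a 2-fold change in either direction, as it did for 98.7% of all probe sets, and the exception was IGFBP4. Of the 17 probe sets 8 lay above the median level of the array, and a dim signal limits what its interval can show.

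**Figure D1:**
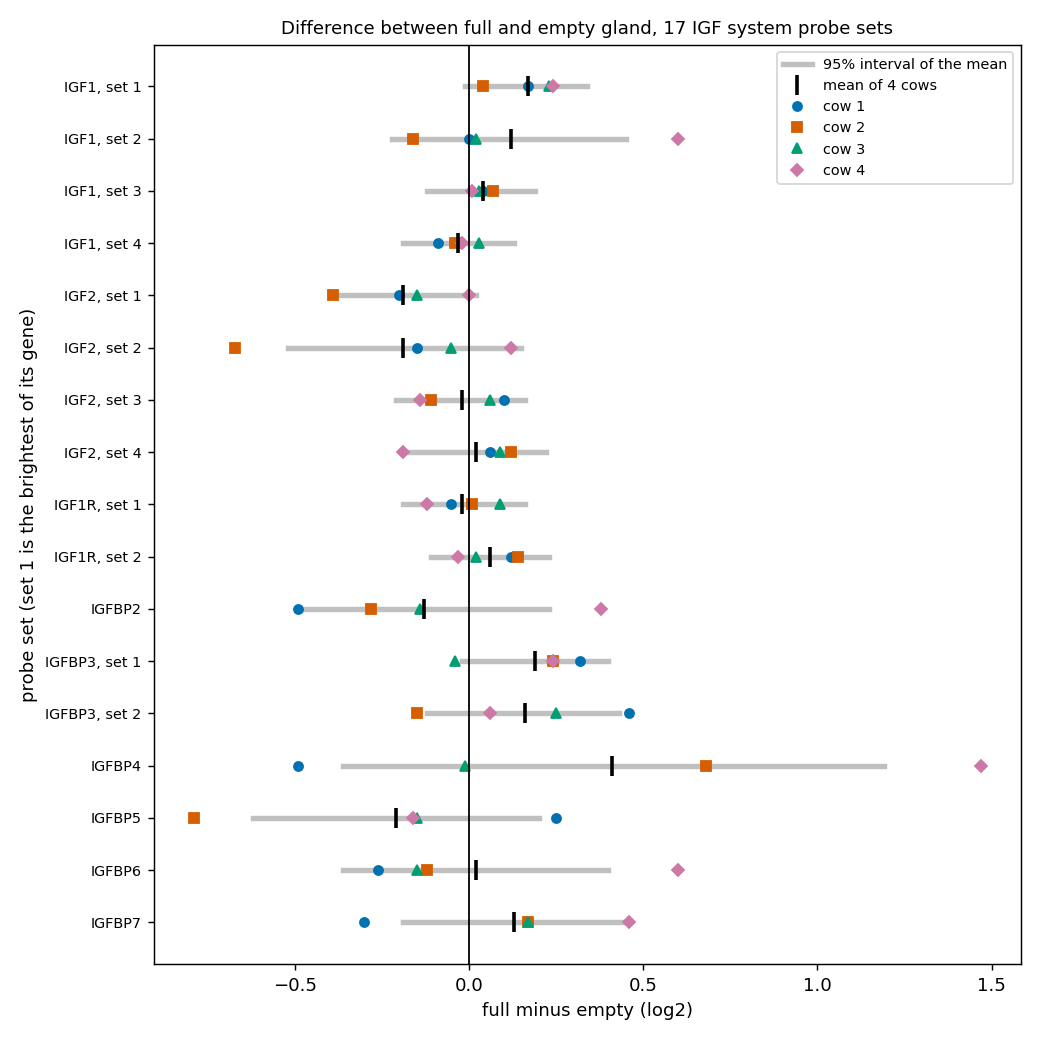
Full minus empty difference (log2) for the 17 probe sets, with 1 coloured symbol per cow, a black bar for the mean of the 4 cows and a grey line for the 95% interval from limma. The means lie close to 0 and the intervals include it, while IGFBP4 has the widest interval, from -0.36 to 1.19.

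Among the ligands, IGF1 was measured near the low end of the array, and its probe sets did not give a common picture. The brightest, Bt.12750.2.A1_at, read 6.30, 6.39, 6.19 and 6.15 in the empty gland of cows 1 to 4 and 6.47, 6.42, 6.43 and 6.40 in the full gland. The lowest full value lay just above the highest empty value, so that the groups did not overlap, which held for 1 of 17 member probe sets and for 0.812% of all probe sets. The difference was 0.17 ± 0.07 (moderated SE, n = 4 cows, limma adjusted p = 0.993).

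The second IGF1 probe set, Bt.12750.1.S1_at, read 6.35, 6.38, 6.02 and 6.25 in empty and 6.35, 6.22, 6.04 and 6.85 in full gland. Its mean difference of 0.12 came mainly from cow 4, at 0.60, and the other cows lay between -0.16 and 0.02. The 2 dimmer IGF1 sets, Bt.12750.2.S1_a_at and Bt.12750.2.S1_x_at, differed by 0.04 and -0.03. All 4 sets lay below the median level of the probe sets, 7.16. In the platform's probe set names the letters A and S stand for opposite orientations of a cluster sequence, and which orientation matches the IGF1 transcript was not checked here.

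IGF2 was brighter, and its 2 bright probe sets followed each other. Bt.23176.2.S1_a_at read 8.98, 8.83, 8.02 and 8.57 in the empty gland of cows 1 to 4 and 8.78, 8.44, 7.86 and 8.57 in the full gland. It was lower in the full gland of cows 1, 2 and 3, at -0.20, -0.39 and -0.15, with no difference to 2 decimals in cow 4, and the groups overlapped. The mean difference was -0.19 ± 0.08 (moderated SE, n = 4 cows, limma adjusted p = 0.993), with a 95% interval of -0.40 to 0.02. Without cow 2 it was -0.12.

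The second IGF2 set, Bt.7676.3.S1_at, read 8.71, 8.77, 8.04 and 8.54 in empty and 8.56, 8.11, 7.99 and 8.66 in full gland, a mean difference of -0.19 ± 0.14. It was lowest in cow 3 in both states, as the first set was. The other 2 IGF2 sets, Bt.29867.1.A1_at and Bt.29867.1.S1_at, a pair of opposite orientation on 1 cluster sequence, lay between 5.46 and 6.66 and differed by -0.02 and 0.02. The cow-to-cow pattern of the bright sets was not seen in this dim pair.

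**Figure D2:**
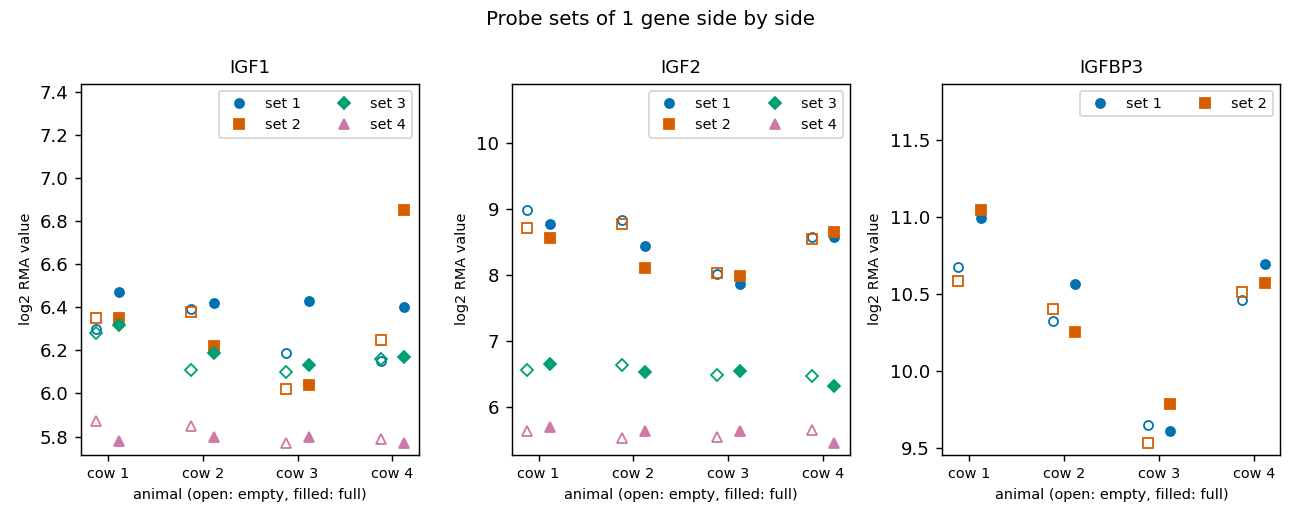
log2 RMA values of all probe sets of IGF1, IGF2 and IGFBP3 by cow (open symbols for empty, filled symbols for full, set 1 the brightest). The IGF1 sets give different patterns, the 2 bright IGF2 sets and both IGFBP3 sets are lowest in cow 3, and the 2 dim IGF2 sets are flat.

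IGF1R, the receptor through which both ligands signal, gave dim and flat readings on its 2 probe sets. Its brighter probe set, Bt.12759.1.S1_at, read 6.05, 5.92, 5.89 and 6.00 in the empty gland of cows 1 to 4 and 6.00, 5.93, 5.98 and 5.88 in the full gland. The difference was -0.02 with a 95% interval of -0.19 to 0.16, which corresponds to 0.877-fold to 1.12-fold. The other IGF1R set, Bt.12759.1.A1_at, differed by 0.06 (95% interval -0.11 to 0.23). Both sets lay below the median level of the probe sets. They are of opposite orientation on 1 cluster sequence and correlated at r = 0.31 over the 8 arrays. Which of them matches the IGF1R transcript was not checked here.

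IGFBP3, the main carrier of IGFs in blood and also made in tissues, was bright. Its 2 probe sets correlated at r = 0.95 over the 8 arrays, but read 10.56 and 10.25 in the full gland of cow 2. Bt.422.1.S2_at read 10.67, 10.32, 9.65 and 10.46 in the empty gland of cows 1 to 4 and 10.99, 10.56, 9.61 and 10.69 in the full gland. Cows 1, 2 and 4 were higher when full, by 0.32, 0.24 and 0.24, and cow 3 differed by -0.04. The mean difference was 0.19 ± 0.08 (moderated SE, n = 4 cows, limma adjusted p = 0.993), and the groups overlapped, with cow 3 low in both states. The second set, Bt.422.1.S1_at, differed by 0.16 ± 0.11, with 0.46, -0.15, 0.25 and 0.06 in cows 1 to 4. The 2 sets thus disagreed in sign in cows 2 and 3.

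IGFBP5, the binding protein known from involution, had a lower mean in the full gland, and the difference did not pass. Its probe set, Bt.21465.1.S1_at, read 9.23, 9.08, 8.80 and 9.93 in the empty gland of cows 1 to 4 and 9.48, 8.30, 8.64 and 9.77 in the full gland. Cow 1 was higher by 0.25, while cows 2, 3 and 4 differed by -0.79, -0.15 and -0.16. The mean difference was -0.21 ± 0.17 (moderated SE, n = 4 cows, limma adjusted p = 0.993). Its 95% interval reached from 0.65-fold to 1.15-fold. Without cow 2 the difference was -0.02, without cow 1 it was -0.37, and without cows 2 and 4 it was 0.048.

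IGFBP4, which binds both ligands and is cleaved by the protease PAPPA, showed the widest scatter between animals. Its probe set, Bt.5237.1.S1_at, read 8.69, 8.73, 7.85 and 8.73 in the empty gland of cows 1 to 4 and 8.20, 9.40, 7.84 and 10.21 in the full gland. Cow 4 was higher by 1.47, a 2.78-fold difference, and cow 2 by 0.68, while cow 1 differed by -0.49 and cow 3 by -0.01. The groups overlapped, and the mean difference of 0.41 ± 0.31 (moderated SE, n = 4 cows) had a limma adjusted p of 0.993 and a 95% interval of -0.36 to 1.19. Without cow 4 the difference was 0.06, without cow 1 it was 0.71, and without cows 2 and 4 it was -0.25.

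IGFBP6, a binding protein that prefers IGF2, measured by Bt.9958.1.S1_at, read 9.35, 9.93, 9.13 and 9.47 in the empty gland of cows 1 to 4 and 9.09, 9.81, 8.98 and 10.08 in the full gland. Cow 4 was higher by 0.60 and the other cows differed by -0.26, -0.12 and -0.15, so that the mean was 0.02 ± 0.15 (moderated SE, n = 4 cows, limma adjusted p = 0.996). Without cow 4 the mean was -0.18. IGFBP2, another carrier of both ligands, measured by Bt.149.1.S1_at, read 6.74, 7.61, 6.69 and 7.64 in empty and 6.25, 7.33, 6.55 and 8.02 in full gland, with 0.38 in cow 4 and -0.49, -0.28 and -0.14 in cows 1 to 3. Its mean difference was -0.13 ± 0.15 (limma adjusted p = 0.993), which was -0.01 without cow 1, -0.30 without cow 4 and -0.31 without cows 2 and 4. Cow 4 was thus the animal in which both genes were higher when full, and the other 3 were lower.

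IGFBP7, a relative that binds IGFs weakly and is a matrix protein around vessels, measured by Bt.2214.1.S1_at, read 12.54, 12.42, 11.98 and 12.33 in the empty gland of cows 1 to 4 and 12.24, 12.59, 12.14 and 12.79 in the full gland. Its differences were -0.30, 0.17, 0.17 and 0.46, with a mean of 0.13 ± 0.13 (moderated SE, n = 4 cows, limma adjusted p = 0.993). The mean was 0.27 without cow 1 and 0.01 without cow 4. As for the other binding proteins, the groups overlapped.

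**Figure D3:**
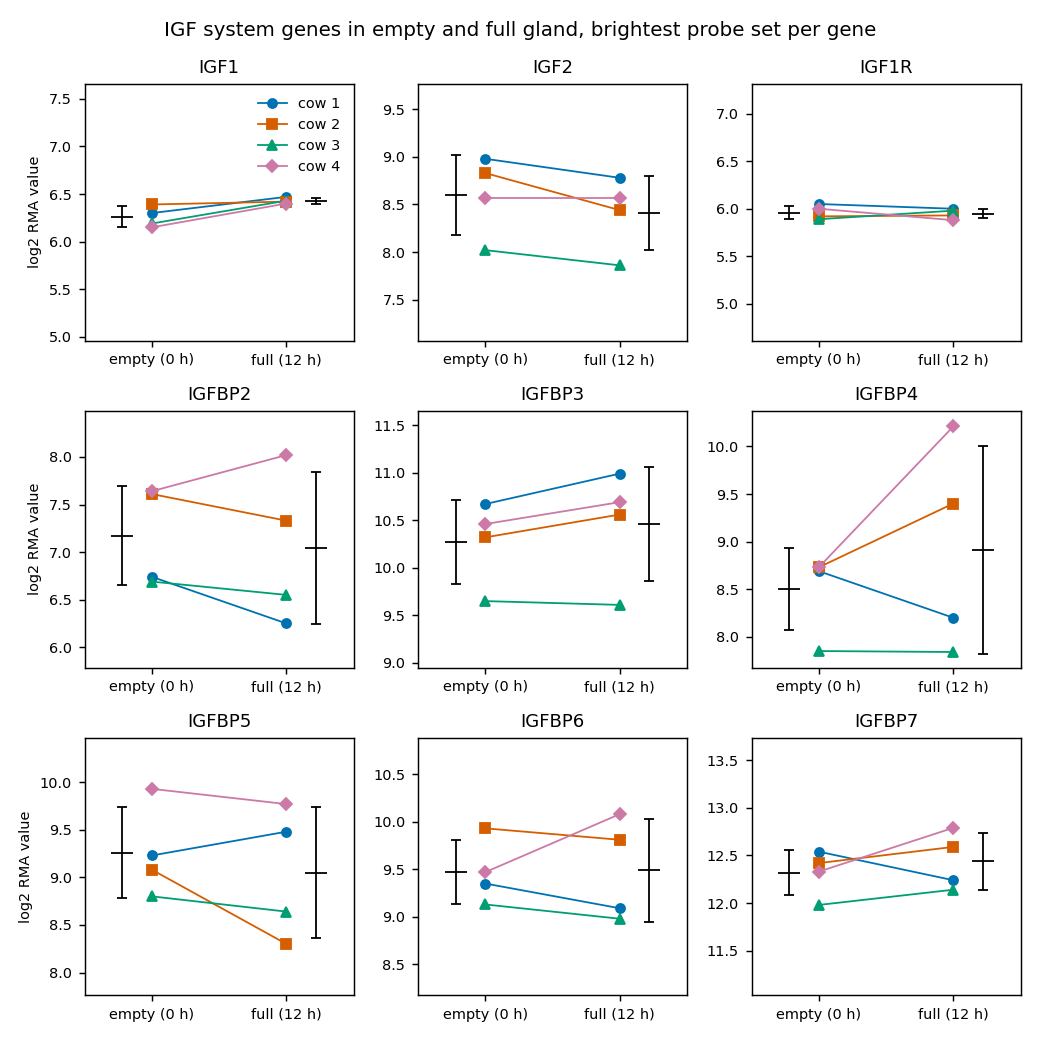
log2 RMA value of the brightest probe set of each of the 9 genes in empty (0 h) and full (12 h) gland, with a line per cow and the mean ± SD of the 4 arrays of a state in black; each panel spans the same log2 range. The lines of IGFBP4 fan out, from 7.84 to 10.21 in the full gland, and those of IGFBP3 keep cow 3 lowest and cow 1 highest in both states.

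The full minus empty differences of IGFBP4, IGFBP6, IGFBP7 and IGFBP2 were lowest in cow 1 and highest in cow 4, and so were the medians of the fibroblast and myeloid marker lists. Of 12 fibroblast and matrix markers measured, 0, 9, 3 and 12 were higher in the full gland of cows 1 to 4, with median differences of -0.33, 0.18, -0.08 and 0.77. The mean level of this list spanned 10.52 to 10.92 on the empty and 10.42 to 11.49 on the full arrays. Of 9 myoepithelial markers 3, 7, 4 and 9 were higher (medians -0.01, 0.18, -0.15 and 0.67), and of 10 myeloid markers 0, 8, 3 and 9 (medians -0.33, 0.13, -0.17 and 0.80). The mean level of the myoepithelial list spanned 9.71 to 10.14 on empty and 9.68 to 10.77 on full arrays, and that of the myeloid list 7.99 to 8.37 and 7.91 to 8.85.

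The 12 endothelial markers had medians of -0.21, -0.27, 0.03 and 0.20, and averaged 8.74 to 9.17 over the 8 arrays. Of 11 luminal markers 7, 4, 6 and 5 were higher in the full gland of cows 1 to 4 (medians 0.02, -0.06, 0.01 and -0.01). Several of them are milk genes near the top of the array. The list's mean level was highest, at 12.35, in the full gland of cow 4. The luminal keratins were less bright and had larger differences, at -0.72, 0.11, 0.25 and 1.21 in cows 1 to 4 for KRT8 and -0.04, 1.19, -0.05 and 1.36 for KRT18. In cow 4 both keratins exceeded the fibroblast median, while MUC1 and BTN1A1, also of the luminal list, differed by -0.46 and -0.32. MUC1, though bright, differed by -0.94 in cow 2.

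Of 11 lymphocyte markers 1, 8, 3 and 9 were higher (medians -0.12, 0.26, -0.05 and 0.26), with a mean level of 7.60 to 7.78 on empty and 7.53 to 8.03 on full arrays. The 6 adipocyte markers had medians of -0.08, -0.20, -0.06 and -0.10 and averaged 8.42 to 8.67. The 8 skeletal muscle markers had medians of -0.04, -0.09, 0.09 and -0.09 and averaged 7.01 to 7.35, although ACTA1, skeletal muscle actin, was higher by 1.77 in cow 4. That average mixes bright and dim genes. CKM and MYH7 had means of 10.09 and 11.34, and the others had means between 5.46 and 6.33. CKM differed by -0.22, 0.26, 0.13 and 0.55 in cows 1 to 4. IGFBP5 and IGFBP3 did not share the sequence of the stromal lists, each with its highest difference in cow 1. The brighter IGFBP3 set had its lowest difference in cow 3, at -0.04. IGFBP6 and IGFBP2 differed by -0.12 and -0.28 in cow 2, where the fibroblast median was 0.18. In biopsies, fewer cells of a type and less RNA per cell cannot be told apart. The part of these cells in the binding protein values was not tested.

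**Figure D4:**
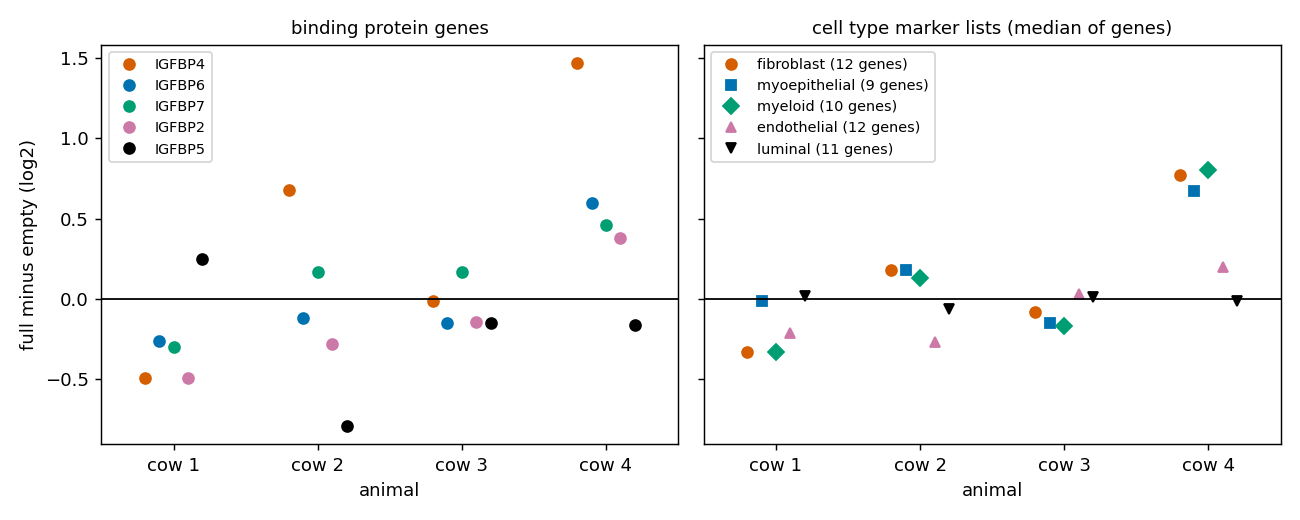
Full minus empty difference (log2) by cow for 5 binding protein genes (left) and as the median over the genes of 5 cell type marker lists (right); symbols are set side by side within a cow. IGFBP4, IGFBP6, IGFBP7 and IGFBP2 are highest in cow 4, where the fibroblast median is 0.77. IGFBP3, highest in cow 1, is not shown. The luminal medians lie between -0.06 and 0.02, while the luminal keratins KRT8 and KRT18 differ by 1.21 and 1.36 in cow 4. In that cow 5 of 11 luminal markers are higher, and MUC1 and BTN1A1 differ by -0.46 and -0.32.

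No member passed the test of differences between cows. In the F-test for cow, computed with limma, which uses the 2 biopsies of an animal as its replicates and so compares these 4 animals, 0 of 17 probe sets passed an adjusted p of 0.05, where 0.437% of all probe sets did. At an unadjusted p under 0.05 there were 7 member probe sets of 6 genes, or 41.2%, against 14.8% of all probe sets. IGFBP3 gave 2 of the 7. The shares were not matched for level, and 8 of the 17 member probe sets lay above the median of the array. The median range between the cow means was 0.52 for the member probe sets and 0.28 for all. The median absolute full minus empty difference was 0.13 and 0.07. A range over 4 means of 2 arrays tends to exceed a difference of 2 means of 4 arrays, so the 2 measures are not comparable.

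IGFBP3 came closest, with an adjusted p of 0.058 for its brighter and 0.133 for its second probe set. Its cow means were 10.83, 10.44, 9.63 and 10.57 in cows 1 to 4, a range of 1.20. Both biopsies of cow 3 lay below all 6 biopsies of the other animals on both probe sets. On the brighter set the values of cow 4 overlapped with those of cow 2 and with those of cow 1. Under other settings the result changed, with an adjusted p of 0.0283 under an intensity trend with a robust prior and 0.54 when cow 3 was left out.

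IGF2 had the same lowest animal, with cow means of 8.88, 8.64, 7.94 and 8.57 (limma F-test, adjusted p = 0.111). IGFBP4 was also lowest in cow 3, at 7.85 against 8.45 or above in the other cows (adjusted p = 0.327), as were IGFBP6 at 9.05 and IGFBP7 at 12.06. On the empty arrays most marker lists had their lowest mean level in cow 3 too. It was 10.52 for fibroblast, 9.71 for myoepithelial, 7.99 for myeloid, 8.92 for endothelial and 12.01 for luminal markers. For lymphocyte and skeletal muscle markers it was 7.60 and 7.01. The array median of the empty glands was also lowest in cow 3, at 7.08. The adipocyte list was lowest in cow 4, at 8.55. On the full arrays the endothelial list was lowest in cow 2, at 8.74, against 8.98 in cow 3. The part of these lists in the low values of cow 3 was not tested.

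Other members ranked the animals differently. IGFBP2 was higher in cows 2 and 4, with cow means of 7.47 and 7.83, than in cows 1 and 3, at 6.50 and 6.62 (limma F-test adjusted p = 0.132). The adjusted p of this F-test was 0.0468 after each array was centred on its median. It was 0.0665 under an intensity trend with a robust prior and 0.0976 with quantile normalization repeated. With each cow left out in turn it was 0.114 to 0.378, and without cows 2 and 4 it was 0.55. IGFBP5 was highest in cow 4 at 9.85 and had cow means of 9.36, 8.69 and 8.72 in cows 1 to 3 (adjusted p = 0.202). In the RefSeq order of protein-coding genes on the cattle assembly ARS-UCD2.0, IGFBP2 and IGFBP5 are direct neighbours, and IGFBP3 is the neighbour of IGFBP1. IGFBP1, a binding protein made mainly in liver, lay between 5.77 and 6.15 on the 8 arrays, and its difference was 0.08 (limma adjusted p = 0.993).

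A wider list of 90 genes of the pathway had 56 measured, of which 0 passed in either direction and 2 had an unadjusted p under 0.05. Of these 56 genes 23 were higher and 33 lower in the full gland, with a median difference of -0.03. Among 12 partners and proteases of the binding proteins, 7 were higher and 5 lower. The smallest unadjusted p there was that of STC1, stanniocalcin, an inhibitor of PAPPA, which was higher in all 4 cows by 0.27, 0.17, 0.19 and 0.14 (limma adjusted p = 0.993), at a dim 5.83 to 6.35. A shared higher direction in all cows was seen for 4.22% of all probe sets.

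Of the other receptors, IGF2R, which clears IGF2 and carries lysosomal enzymes, differed by -0.09, and INSR, the insulin receptor, by 0.01. Among 10 adaptor genes 7 were higher, and GAB1, a docking protein, had the smallest p with a difference of 0.22. Of 19 genes of the PI3K, AKT and mTOR branch 15 were lower, with DDIT4, a stress-induced inhibitor of mTOR, at -0.24. Over all genes 48.6% had a higher mean in the full gland. Of 6 genes of the RAS and MAP kinase branch 4 were lower, and MAP2K2, the kinase MEK2, differed by -0.28, -0.29, -0.14 and -0.14 in cows 1 to 4 (limma adjusted p = 0.993). A shared lower direction in all cows was seen for 5.97% of all probe sets.

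Of 5 measured genes of upstream hormone signalling 4 were lower in the full gland, and STAT5B, a transcription factor activated by growth hormone and prolactin, differed by -0.22, with -0.54 in cow 4. The 2 measured IGF2 mRNA-binding genes were dim, and IGF2BP3 differed by 0.04. None of these genes passed the test, and the genes of a branch were read on the same 8 arrays. The counts by branch are therefore only a description.

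For the 6 members brighter than the median probe set, the genes with the most similar profile over the 8 arrays were listed from 6199 candidates by Pearson's correlation. The 8 arrays come from 4 animals and share their biopsies, and the highest of so many correlations is high by selection. IGFBP6 was most like the collagen genes COL3A1 (r = 0.975) and COL1A2 (0.964). IGFBP4 was most like CKM (0.991), which is on the skeletal muscle list, and HADHB (0.991). IGFBP7 was most like PACC1 (0.992) and FKBP7 (0.980), and IGFBP5 like NIBAN1 (0.978) and CTDSPL (0.955). IGF2 was most like WDR46 (0.967) and SYT4 (0.946), and IGFBP3 like NHLRC2 (0.966) and CCDC28B (0.962).

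COL3A1 shows what this likeness looks like in values, with 12.36, 12.83, 12.18 and 12.63 in the empty gland of cows 1 to 4 and 12.07, 12.97, 12.12 and 13.11 in the full gland. Like IGFBP6 it was lowest in cow 3 in the empty gland and highest in the full gland of cow 4.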

How the data were processed

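The authors deposited log2 values of 8 arrays, summarised per probe set by RMA (background correction, quantile normalization, probe summary), per the submitters' processing notes, with no version stated. That they are log2 was inferred from their range. Quantile normalization hides a shift shared by most genes, and oligo(dT) priming, per the labels' protocols, makes 5' probes sensitive to broken RNA. Arrays have no read depth.

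Of 24128 probe sets, 112 were platform controls and were not tested, leaving 24016. Of these 13292 had 1 symbol, 86 several and 10638 none, and genes were not named from those with several. The 9 member symbols were the same in RefSeq through their gene numbers. The brightest probe set stood for its gene.

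State and cow were fixed terms in limma 3.58.1 (R 4.3.3, lmFit and eBayes, two-sided, Benjamini-Hochberg over 24016 probe sets, threshold 0.05, 3 residual and 2.81 prior degrees of freedom). The block follows the sample descriptions, which pair the biopsies by cow. Deviations from the group means correlated at 0.319 to 0.597 within a cow and at most -0.0311 between cows. Subtracting a group mean itself pushes the between-cow values below 0, so their sign adds nothing on the pairing. The code was tested on simulated data. Tables used pandas 2.3.3. Alternatives were a threshold of 0.10, an intensity trend together with a robust prior, leaving out each cow, brighter probe sets, quantile normalization repeated, arrays centred on their median, cow as a random block, no block and averaging the probe sets per gene. Leaving out cows 2 and 4 was added after seeing the data.

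The members and lists were chosen with earlier results of these data known. All member probe sets are named, with the gene of smallest p in each branch of the pathway list and, for members above the median level, the 2 most similar genes. COL3A1 values, CKM values, IGFBP1, INSR, KRT8, KRT18, MUC1, BTN1A1, ACTA1 and MYH7 were named after their values were seen, as were the genes under other observations.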

Additional observations from a re-analysis of the deposited data

Results flagged for a closer look

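IGFBP4 in the empty gland of cow 3, at 7.85, lay far from the other 3 empty arrays, which read 8.69, 8.73 and 8.73. It was the only array far from its group by Dixon's criterion among 34 groups of 4 arrays tested (17 probe sets in 2 states), and chance flags about 1 in 20 groups. The full gland of cow 3 read 7.84.

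The actin control probes, which no comparison used, had a 3' minus 5' difference of 1.36 in the full library of cow 4, against at most 0.07 in the empty libraries. This library also held the highest values of IGFBP2, IGFBP4, IGFBP6 and IGFBP7 among the full arrays, at 8.02, 10.21, 10.08 and 12.79. A link between the control and these values was not tested.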

How the results depend on the processing

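In the comparison of full with empty gland, 0 probe sets, 0 member probe sets and 0 pathway genes passed limma under each alternative that gave a test (averaging a gene's probe sets gave values only), including no replicate block (220 probe sets at an unadjusted p under 0.05, 1 of them a member), so the block changed no call. Of 100 alternative values of the 9 member differences 92 kept their direction. The 8 that turned were IGF1R without cow 4 (0.017), without cows 2 and 4 (0.020) and as the mean of its probe sets (0.024), IGFBP6 without cow 4 (-0.18), and, without cows 2 and 4, IGFBP4 (-0.25), IGFBP5 (0.048), IGFBP6 (-0.20) and IGFBP7 (-0.067). With each replicate left out in turn, IGF1R ranged from -0.05 to 0.017 and IGFBP6 from -0.18 to 0.11. The smallest adjusted p of a member was 0.514. Between cows, the 105 probe sets passing became 208 after median centring, 248 with an intensity trend, 255 at a threshold of 0.10, 1820 without cows 2 and 4, and 13 to 131 when each replicate was left out. Of the members 0 became 1 after median centring (IGFBP2), 1 with the trend and 1 at the threshold of 0.10 (IGFBP3 in both), 6 without cows 2 and 4 and 0 to 0 when each replicate was left out. The causes were not tested. With 4 animals a probe set of the spread of IGFBP4 had an interval wider than a 2-fold change, and the dim IGF1 and IGF1R signals limit what could be detected.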

Other observations

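Of 12 measured partners and proteases of the binding proteins, 4 had differences of the same sign as the fibroblast median in each cow, namely ADAM9, MMP2, PLAT and HTRA1. The share of all probe sets with these signs was not computed, so the count is only a description. Over all probe sets the SD of the full minus empty difference was 0.19, 0.38, 0.17 and 0.30 in cows 1 to 4. MMP2, a gelatinase of stromal cells, differed between full and empty gland by -0.47, 0.54, -0.33 and 0.79 in cows 1 to 4, PLAT, the tissue plasminogen activator, by -0.09, 0.46, -0.36 and 0.85, and HTRA1, a secreted serine protease, by -0.32, 0.49, -0.49 and 0.57. ADAM12, a metalloprotease, was higher by 0.83 in cow 4 and differed by -0.22, -0.20 and -0.16 in cows 1 to 3. ADAM9, another metalloprotease, differed by -0.22, 0.23, -0.17 and 0.15. CTSD, FURIN, PLG, PAPPA and the remaining genes of the list did not share these signs, with -0.17, -0.04, -0.29 and -0.14 for CTSD, a lysosomal protease. In limma MMP2, PLAT, HTRA1 and ADAM12 each had an adjusted p of 0.993, and PAPPA, the protease of IGFBP4, was dim at 5.72 to 5.97.

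Of the 5 measured genes of upstream hormone signalling, 0 passed limma's test of cows. GHR, the growth hormone receptor, had cow means of 7.98, 7.63, 7.21 and 7.00 in cows 1 to 4 (limma F-test adjusted p = 0.108), and STAT5B 8.19, 7.45, 7.52 and 7.09 (adjusted p = 0.13). SOCS2, a feedback inhibitor of growth hormone signalling, was lowest in cow 3, with cow means of 9.66, 9.90, 8.83 and 9.63 (adjusted p = 0.0797), the animal in which IGFBP3 and IGF2 were also lowest. PRLR, ESR1 and NR3C1 had adjusted p of 0.62, 0.389 and 0.58. GHR, STAT5B and SOCS2, which is listed with the adaptors, were chosen after their values were seen.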
